A study of Mus musculus with 82 samples.

Results

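Malat1, Neat1, Tug1, Miat and Pvt1 are genes of long RNAs that code for no protein and are known for staying largely in the nucleus. They were taken by name, as 5 of the 24746 genes with a curated RefSeq span, and their nascent transcription was followed in mouse embryonic stem cells. All libraries came from the V6.5 line, from a cross of C57BL/6 and 129/sv mice, grown on gelatin in serum medium with leukaemia inhibitory factor. The labels name no deletion, transgene or treatment, and the 3 groups compared are assays. The assays were AGTuC, a bulk run-on in which detergent opens the nuclei, inAGTuC, a run-on in pooled nuclei kept intact by a lower detergent dose, and scGRO–seq, the same intact run-on with a single nucleus in each well. In all of them polymerases that are engaged on DNA add a nucleotide carrying a click handle, which stops them, so each read is taken to mark where a polymerase stood, which was not tested here. The 16 samples used here were 10 scGRO–seq batches summed over cells, 4 inAGTuC libraries and 2 AGTuC libraries of the same experiment number.

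Malat1 gathers in nuclear speckles, bodies rich in splicing factors, and its transcript is not finished by ordinary polyadenylation. RNase P cuts it just before a tRNA-like stretch, which leaves as the small RNA mascRNA, and the long RNA keeps an end folded into a triple helix. Neat1 is the scaffold of paraspeckles, and from a single start it makes a short polyadenylated transcript and a long transcript that passes the short one's end and, like Malat1, is cut by RNase P. Tug1 is a spliced RNA of cells of many kinds, Miat is best known from the nervous system and the retina, and Pvt1 lies next to Myc and is a frequent site of amplification with it.

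On GRCm38, Malat1 (gene 72289) lies at chr19:5795690-5802672 on the minus strand as a single exon of 6983 bp. Neat1 (gene 66961) lies 22035 bp away at chr19:5824708-5845480 on the same strand, 20773 bp long without an intron. Its short transcript covers the first 3185 bp and the other 17588 bp belong to the long transcript alone. Tug1 (gene 544752) lies at chr11:3639785-3648814 on the minus strand and holds 6781 exon bases in 9030 bp. Its start is 622 bp from that of Morc2a, which runs the other way. Miat (gene 330166) lies at chr5:112213228-112228948 on the minus strand, with 8760 exon bases in 15721 bp. Pvt1 (gene 19296) lies at chr15:62037986-62260215 on the plus strand and is by far the longest at 222230 bp, of which 5062 are exon bases. It starts 47.6 kb past the end of Myc.

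The profiles below change most at the ends of Malat1 and of the short Neat1 transcript, and near the starts of Malat1 and Tug1, so those sequences are printed here from RefSeq's GRCm38 records, 5′ to 3′ along each gene. The end of Malat1 (chr19:5795864-5796141, minus strand) has mascRNA in capitals, 58 bases at chr19:5795924-5795981, 292 bp before the annotated end of the gene. A run of 12 A ends 6 bases before mascRNA, and 2 runs of 5 T end 81 and 35 bases before it. The A-rich and the U-rich stretches are those known to pair into the triple helix. The end of the short Neat1 transcript (chr19:5842236-5842356, minus strand) has the polyadenylation signal AATAAA in capitals, and the transcript ends 25 bases after it. In the Malat1 promoter (chr19:5802623-5802922, minus strand) capitals mark the 10 bases where the AGTuC reads near the start were densest. In the Tug1 promoter (chr11:3648765-3649064, minus strand) they mark the first 50 bases from the annotated start.
Malat1 end: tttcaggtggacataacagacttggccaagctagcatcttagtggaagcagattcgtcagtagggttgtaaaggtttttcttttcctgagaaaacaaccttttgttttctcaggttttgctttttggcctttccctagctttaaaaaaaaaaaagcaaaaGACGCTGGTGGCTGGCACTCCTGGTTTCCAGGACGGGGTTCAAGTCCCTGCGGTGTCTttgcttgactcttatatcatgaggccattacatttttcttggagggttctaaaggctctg
Neat1 short transcript end: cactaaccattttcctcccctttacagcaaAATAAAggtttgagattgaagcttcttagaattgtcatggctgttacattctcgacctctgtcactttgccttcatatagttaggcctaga
Malat1 promoter: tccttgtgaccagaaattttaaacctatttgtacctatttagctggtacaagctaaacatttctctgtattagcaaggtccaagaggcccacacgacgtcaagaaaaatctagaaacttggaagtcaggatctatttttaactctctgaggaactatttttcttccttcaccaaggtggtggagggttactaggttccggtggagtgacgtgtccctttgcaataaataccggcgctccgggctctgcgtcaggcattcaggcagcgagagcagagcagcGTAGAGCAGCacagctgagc
Tug1 promoter: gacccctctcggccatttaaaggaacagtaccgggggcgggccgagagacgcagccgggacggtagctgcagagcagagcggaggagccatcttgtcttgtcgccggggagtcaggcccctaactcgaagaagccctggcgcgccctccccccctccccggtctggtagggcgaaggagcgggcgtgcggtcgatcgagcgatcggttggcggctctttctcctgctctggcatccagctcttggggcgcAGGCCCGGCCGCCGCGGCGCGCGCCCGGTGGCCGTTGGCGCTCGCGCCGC

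Promoter windows of 250 bases before to 50 bases after the start were found for Malat1, Tug1 and Miat and searched on both strands. The letters TATAAA were in none of the 3, and in 13.6% of all 32851 windows. The letters GGGCGG, in 35.7% of all windows, were not in that of Malat1, and began at -216 in that of Tug1 and at -224 in that of Miat.

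The scGRO–seq batches held 2512 nuclei, 92 to 812 per batch, with 1177 to 51431 reads per nucleus (median 3435.5). They carried 254 distinct cell barcodes, of which 226 occurred in more than 1 library. Of the reads listed in the scGRO–seq libraries of these batches, 28.9% had the same molecule in another library and were left out of the values given here. The same rule left out a far smaller part of the AGTuC reads, 11455 of 2243292 and 11699 of 4767439. In the inAGTuC libraries it left out 163867 of 787132, 194855 of 1016469, 450344 of 1912347 and 71236 of 1526599. The assays thus lost unlike parts of their reads, and values with all deposited reads are given below where they changed. Sense reads on genes numbered 144722 to 2966627 per sample. The label was checked on 8 markers of embryonic stem cells (Pou5f1, Sox2, Nanog and others), of which none was at 0 in any assay. Their summed level, in sense reads per kb of span per 1000000 sense reads on genes, was 43.1 to 146 over the scGRO–seq batches, 71.4 to 111 over the inAGTuC libraries, and 197.9 and 198.4 in AGTuC. For 8 markers of differentiated or feeder cells the sum was 2.03 to 26.6, 3.68 to 7.60, and 2.94 and 3.47, and 2 of them were at 0 in AGTuC.

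Malat1 was among the most heavily read genes of these cells in every assay, and the mean levels of the members had the same order in each. Levels here and below are in the same unit of sense reads per kb of span. In scGRO–seq Malat1 ranked 30 of 24746 genes by mean level, in inAGTuC 21 and in AGTuC 41. Over the 10 scGRO–seq batches its level was 170 at the lowest, 255 at the median and 568 at the highest. The 4 inAGTuC libraries gave 220, 345, 140 and 602, and the 2 AGTuC libraries 91.8 and 81.7. Both AGTuC values lay below all 14 values of the intact-nucleus assays, while the inAGTuC and scGRO–seq values overlapped.

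**Figure D1:**
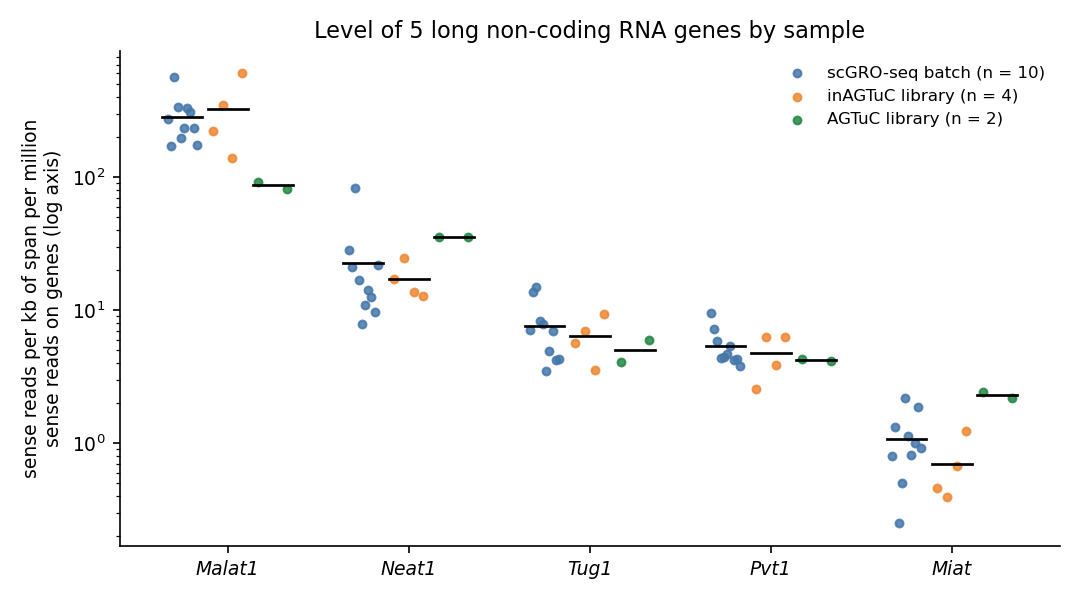
Level of the 5 genes in each sample, as sense reads per kb of span per 1000000 sense reads on genes, on a log axis. Points are samples and bars the mean of an assay, and the 2 AGTuC points of Malat1 (81.7 and 91.8) sit below all of its scGRO–seq and inAGTuC points.

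Neat1 came next, with a level of 7.84 at the lowest, 15.6 at the median and 83.1 at the highest over the scGRO–seq batches. The inAGTuC libraries gave 17.2, 24.5, 13.8 and 12.7 and the AGTuC libraries 35.2 and 35.4. A single scGRO–seq batch, Exp208, lay above AGTuC, and the next batch below it was at 28.5. Malat1 stood above Neat1 in every sample, by 6.84 to 25.0 times in scGRO–seq (median 20.6), 10.1 to 47.4 times in inAGTuC, and 2.31 and 2.61 times in AGTuC.

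Tug1, Pvt1 and Miat were read at lower mean levels, and Tug1 overlapped with Neat1 in scGRO–seq. The mean of Neat1 was 2.99 times that of Tug1 in scGRO–seq, 2.67 times in inAGTuC and 7.00 times in AGTuC, and Neat1 was the higher in 9 of 10 scGRO–seq batches and in all other samples. In the remaining batch, Exp236, they were level (7.84 and 7.85). For Tug1 the level was 3.48, 7.00 and 14.9 at the lowest, median and highest scGRO–seq batch, 5.67, 6.93, 3.56 and 9.41 in the inAGTuC libraries, and 4.11 and 5.97 in AGTuC. For Pvt1 the same values were 3.81, 4.58 and 9.52 in scGRO–seq, 2.57, 6.27, 3.91 and 6.33 in inAGTuC, and 4.32 and 4.14 in AGTuC. Tug1 and Pvt1 overlapped in every assay, with Tug1 the higher in 6 of 10 scGRO–seq batches, 3 of 4 inAGTuC libraries and 1 of 2 AGTuC libraries. Miat was lowest throughout, at 0.252, 0.971 and 2.18 in scGRO–seq, 0.465, 0.398, 0.681 and 1.24 in inAGTuC, and 2.45 and 2.19 in AGTuC. These Miat levels rest on 1 to 88 reads per scGRO–seq batch and 2 to 17 per inAGTuC library.

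Between bulk AGTuC and scGRO–seq, Malat1 was the only member called in the main level fit. In a limma fit over 12203 genes, Malat1 was lower in AGTuC by 1.94 on the log2 scale, 3.83-fold (SE 0.46, limma adjusted p = 0.0015, n = 2 and 10). It was 1 of 5 members called, where 54.7% of all genes tested were called and the median log2 difference of all genes was 0.12. The log2 differences of the others were 0.70 for Neat1 (SE 0.51, adjusted p = 0.26), -0.81 for Tug1 (SE 0.37, adjusted p = 0.074), 0.47 for Miat (SE 0.36, adjusted p = 0.28) and -0.61 for Pvt1 (SE 0.33, adjusted p = 0.12). Malat1 was not called once all scGRO–seq batches with enough nuclei were added (-1.43, adjusted p = 0.17), which brings in 4 batches with Malat1 levels of 10.8 to 415. With experiment as a random block, a fit chosen after seeing the data because the 2 AGTuC libraries share an experiment number, the estimated correlation was 0.609 and the Malat1 difference -1.99 (SE 0.61, adjusted p = 0.014). In pooled or bulk samples, fewer cells transcribing a gene and fewer polymerases per cell cannot be told apart. Nor can either be told apart from a difference in assay chemistry or experiment, since the assays differ in detergent and the AGTuC libraries share an experiment number. Neat1 passed without batch Exp208 (0.85, adjusted p = 0.042), and over all samples left out in turn its log2 difference ran from 0.44 to 0.85. Tug1 passed without scGRO–seq batch Exp246 (-1.001, adjusted p = 0.031), Exp263 (-0.99, adjusted p = 0.035) or Exp264a (-0.97, adjusted p = 0.041), and without inAGTuC Exp234_c11 (-0.93, adjusted p = 0.027) or Exp261_c16 (-0.90, adjusted p = 0.026). Pvt1 passed without inAGTuC Exp208_c12 (-0.70, adjusted p = 0.036) or Exp261_c16 (-0.69, adjusted p = 0.034). With all deposited reads Tug1 (-1.15, adjusted p = 0.0049) and Pvt1 (-0.92, adjusted p = 0.0067) passed too. With 1 read kept per 50 bp bin and barcode, which caps AGTuC, Neat1 turned to -0.98 (adjusted p = 0.14) and Malat1 was -4.41.

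Between inAGTuC and scGRO–seq no member differed in the limma fit, nor did any gene (0% called of 12203, with 682 at an unadjusted p under 0.05). The log2 difference of Malat1 was -0.04 (SE 0.35, adjusted p = 0.99). Without inAGTuC Exp261_c16, 86 genes were called. Experiment Exp208 holds both assays, and there the mean level of the 2 inAGTuC libraries was set against the scGRO–seq batch, with no test. The log2 ratio was -1.01 for Malat1, -1.99 for Neat1, -1.24 for Tug1, 0.78 for Miat and -0.42 for Pvt1. The Miat ratio rests on 1 scGRO–seq read and on 2 and 3 inAGTuC reads.

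Between AGTuC and inAGTuC, 2 of 5 members were called and 41.9% of all genes tested. Malat1 was lower in AGTuC by 1.89 on the log2 scale (SE 0.51, adjusted p = 0.0063, n = 2 and 4), and without AGTuC c02 the log2 difference was -1.92 (adjusted p = 0.062), and with all scGRO–seq batches -1.84 (adjusted p = 0.15). Miat was higher by 1.39 (SE 0.50, adjusted p = 0.031). With experiment as a random block neither was called, at -1.56 for Malat1 (adjusted p = 0.076) and 0.96 for Miat (adjusted p = 0.15). The Miat call was also lost with all deposited reads (1.15, adjusted p = 0.073), no minimum of genes per cell (1.29, adjusted p = 0.068) and all barcodes (1.27, adjusted p = 0.082). Miat had passed the filter on low counts in 2 scGRO–seq, 0 inAGTuC and 2 AGTuC samples, and its call was lost when any sample other than scGRO–seq batches Exp208, Exp211 and Exp236 and inAGTuC Exp261_c16 was left out, with log2 differences of 0.98 to 1.38 and adjusted p of 0.054 to 0.16. Neat1 (0.91, adjusted p = 0.21), Tug1 (-0.53, adjusted p = 0.33) and Pvt1 (-0.28, adjusted p = 0.58) did not pass, but Tug1 did with all deposited reads (-1.02, adjusted p = 0.028).

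The start of Malat1 held a far larger part of its reads in AGTuC than in the intact-nucleus assays. Promoter share means sense reads from the annotated start to 500 bp into the gene as a percentage of those on the span. For Malat1 it was 4.00% at the lowest, 6.38% at the median and 9.88% at the highest scGRO–seq batch, 4.75%, 6.85%, 3.94% and 5.32% in inAGTuC, and 27.4% and 23.6% in AGTuC. The AGTuC values exceeded those of scGRO–seq by 18.95 percentage points without overlap (exact permutation test, two-sided, p = 0.0152, the smallest that 2 against 10 samples allow, adjusted p = 0.0231). Many genes moved this way, with 72.3% of 4343 genes called and a median difference of 11.4 points. Within the AGTuC reads of Malat1, 423 of 2592 lay in the first 100 bp (16.3%), and the densest 10 bp, 30 to 39 bp from the start and printed in capitals above, held 102. In scGRO–seq 157 of 9535 reads (1.65%) lay in the first 100 bp.

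Tug1 showed a rise of the same size on far fewer reads. Its promoter share ran from 0% through a median of 5.41% to 8.82% in scGRO–seq, was 14.3%, 0%, 0% and 1.35% in inAGTuC, and 17.3% and 28.7% in AGTuC, a rise of 18.9 points over scGRO–seq without overlap (exact permutation p = 0.0152, adjusted p = 0.0231). On the Tug1 strand 130 AGTuC reads also lay in the 500 bp before its start, against 55 in the 500 bp after it. For Neat1 the share was 3.23%, 7.33% and 12.4% at the lowest, median and highest scGRO–seq batch and 11.1% and 12.3% in AGTuC, which overlapped (adjusted p = 0.20). For Pvt1 it was 0.687% ± 0.432 (SD, n = 10) in scGRO–seq and 0.520% and 0.953% in AGTuC (adjusted p = 0.88). Miat had too few reads for the test, with 2 of 134 scGRO–seq reads and 19 of 156 AGTuC reads in the window. Without either AGTuC library no gene was called, Malat1 and Tug1 included, since 1 sample against 10 cannot give a small enough p, nor was any with 1 read kept per 50 bp bin and barcode, where the Malat1 difference was 0.11 points and that of Tug1 7.46. In inAGTuC 0% of genes were called against scGRO–seq by the exact permutation test (394 at an unadjusted p under 0.05), and AGTuC against inAGTuC, with 2 and 4 samples, cannot go below p = 0.0667.

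**Figure D2:**
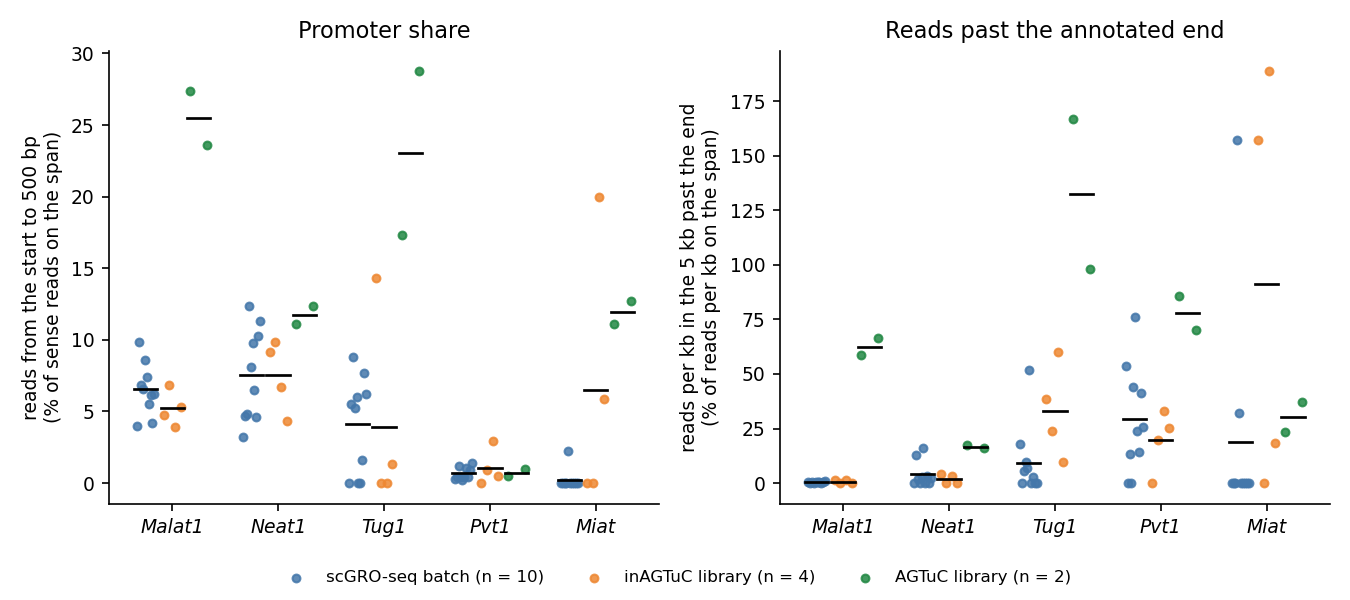
Promoter share (left, % of sense reads on the span within 500 bp of the start) and read density in the 5 kb past the annotated end (right, % of the density on the span) by gene. Points are samples and bars the mean of an assay, and AGTuC stands apart for Malat1 in both panels (23.6% and 27.4% on the left, 58.6% and 66.6% on the right).

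Past its annotated end Malat1 was read in AGTuC, though less relative to its span than most genes there, and hardly at all in scGRO–seq or inAGTuC. The density in the 5 kb past the end is given as a percentage of that on the span. For Malat1 it was 0%, 0.385% and 0.836% at the lowest, median and highest scGRO–seq batch, 1.33%, 0.242%, 1.22% and 0.0381% in inAGTuC, and 58.6% and 66.6% in AGTuC. The reads behind these values were 31 past the end against 9535 on the span in scGRO–seq, 11 against 5695 in inAGTuC and 1184 against 2592 in AGTuC. On the log2 scale with a pseudocount of 0.1 reads per kb, AGTuC exceeded scGRO–seq by 6.99 (exact permutation p = 0.0152, the smallest possible, adjusted p = 0.0375). As for the promoter share, this test takes the 2 AGTuC libraries of the same experiment number as separate samples. The difference for Malat1 exceeded that of 99.5% of the 3810 genes tested, whose median was 1.88 and of which 40.4% were called. The pseudocount sets a lowest value that depends on how densely a gene's span is read. Densely read genes such as Malat1 can thus reach larger differences than sparsely read ones, which limits this ranking. The AGTuC reads past the end lay close to it, as 299, 551, 170, 136 and 20 in successive windows of 500 bp and no more than 5 in each of the remaining windows.

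Before the annotated end, the reads of the intact-nucleus assays fell off within the 150 bp ahead of mascRNA. Windows around it were chosen after the profiles had been seen and are given as a description. In scGRO–seq 248 reads lay 200 to 101 bp before the first base of mascRNA, 44 in the next 100 bp and 7 in the 100 bp that begin with it. The inAGTuC counts were 111, 28 and 1, and the AGTuC counts 41, 14 and 14. In windows of 25 bp the scGRO–seq count went from 70 at 150 bp before mascRNA to 28, 19, 3, 5 and 17 in the next windows, the last of which ends at mascRNA. The inAGTuC count went from 29 to 10, 16, 4, 5 and 3. AGTuC reads fell there too, but were again found past the annotated end. Of the reads within 1 kb on either side of that base, 0% to 6.67% lay after it in the scGRO–seq batches (median 2.74%), 0.607% to 10.0% in inAGTuC, and 65.8% and 67.1% in AGTuC. Part of the order along the gene also differed before that point, for the first 25% of the Malat1 span held 22.7% of its reads in scGRO–seq, 17.3% in inAGTuC and 47.8% in AGTuC.

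**Figure D3:**
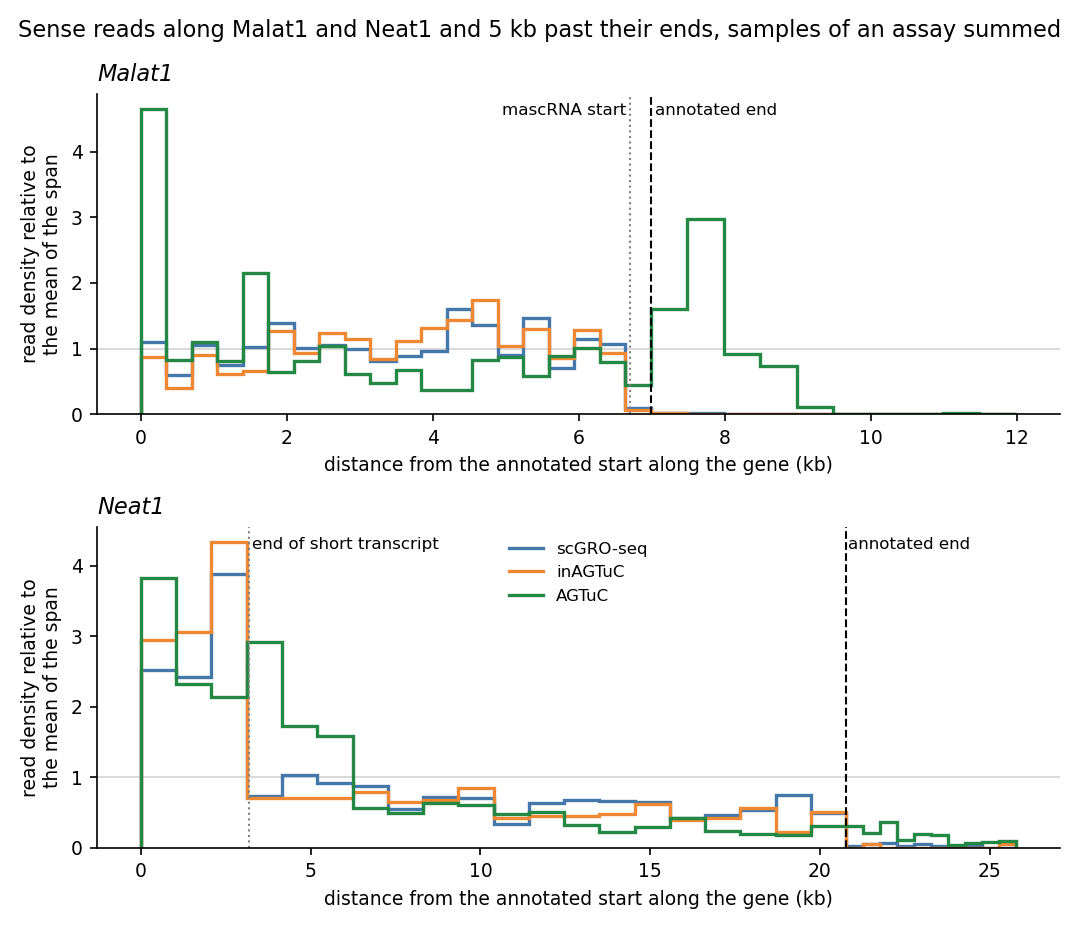
Sense read density along Malat1 (top) and Neat1 (bottom) and the 5 kb past their ends, relative to the mean density on the span, against the distance from the annotated start in kb, with the samples of an assay summed. The scGRO–seq and inAGTuC lines drop ahead of mascRNA in Malat1 and near the end of the short transcript in Neat1, and the AGTuC line is high again past both.

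The start of Neat1 was read more densely than the rest, and in the intact-nucleus assays reads were fewer after the end of the short transcript than before it. The first 3185 bp were read more densely than the rest of the gene in all 16 samples, by 2.03 to 11.4 times in scGRO–seq (median 5.50), by 2.56, 8.51, 5.69 and 6.24 times in inAGTuC, and by 4.33 and 3.85 times in AGTuC. These ratios overlapped between assays (AGTuC against scGRO–seq, log2 difference -0.28, exact permutation p = 0.62; inAGTuC against scGRO–seq, 0.07, p = 0.88; AGTuC against inAGTuC, -0.35, p = 0.67). With 1 read kept per 50 bp bin and barcode, which caps AGTuC, the AGTuC to scGRO–seq difference was -1.74 (exact permutation p = 0.0152). With a pseudocount of 1 it was 0.0094. Where the reads fell around the end of the short transcript differed, again as a description. Of the reads within 1 kb on either side, 0% to 37.5% lay after it in scGRO–seq (median 16.2%), 9.30% to 38.5% in inAGTuC, and 59.5% and 61.8% in AGTuC. In scGRO–seq 39 reads lay 200 to 101 bp before that end, 18 in the next 100 bp and 6 in the 100 bp after it, and in AGTuC 44, 22 and 19. Beyond the polyadenylation signal printed above, the AGTuC density stayed raised over the next 3 of the 20 equal bins of the span and was lower after them.

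Past the annotated end of the long Neat1 transcript the density was 0%, 2.08% and 16.3% of that on the span at the lowest, median and highest scGRO–seq batch, 4.24%, 0%, 3.10% and 0% in inAGTuC, and 17.4% and 16.01% in AGTuC. The AGTuC value differed from scGRO–seq by 1.97 on the log2 scale and was not called (exact permutation, adjusted p = 0.10). Without scGRO–seq batch Exp246, which alone reached the AGTuC values, it was called (2.21, adjusted p = 0.044). These Neat1 values rest on 12 reads past the end in scGRO–seq, 2 of them in Exp246, 2 in inAGTuC and 127 in AGTuC. Tug1 was called, with 0%, 4.09% and 51.6% in scGRO–seq against 166.7% and 98.2% in AGTuC (log2 difference 3.69, exact permutation p = 0.0152, adjusted p = 0.0375). The inAGTuC libraries gave 38.7%, 24.1%, 60.2% and 9.76% for Tug1. Its values rest on 13 reads past the end in scGRO–seq and 16 in inAGTuC. Pvt1 was not called, with 0%, 24.7% and 75.98% in scGRO–seq against 85.9% and 70.1% in AGTuC (1.54, adjusted p = 0.15). Pooled over samples, 34.2% was the median of all genes in scGRO–seq, and Malat1 (0.454%) and Neat1 (2.91%) stood below all but 0.892% and 2.26% of genes. Tug1 (6.36%) was low as well, above 4.07% of genes, whereas Pvt1 (33.5%) lay at the middle. In AGTuC the median of all genes was 143.9%, and Malat1 (63.8%) and Neat1 (16.5%) were again on the low side, above 11.9% and 3.46% of genes. Miat had too few reads for the test. Without either AGTuC library 0 genes were called by the exact permutation test, and 0 with a pseudocount of 0.01, where Malat1 differed by 7.63 and Tug1 by 5.19 (adjusted p = 0.066 for both). With a pseudocount of 1 Tug1 was not called (1.87, adjusted p = 0.056), and with all deposited reads Neat1 (2.43) and Pvt1 (1.79) were (adjusted p = 0.034 for both). Neither inAGTuC against scGRO–seq (185 genes at an unadjusted p under 0.05) nor AGTuC against inAGTuC (0, as p cannot go below 0.0667) called a gene.

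The spliced members were read across introns and exons. In Pvt1, where exons make up 2.28% of the span, 2.17% of scGRO–seq reads (95% Wilson interval 1.83 to 2.58), 2.28% of inAGTuC reads and 2.70% of AGTuC reads lay in exons. The reads of Pvt1 thus lay close to evenly between exon and intron in the intact-nucleus assays. In Tug1, with 75.1% of the span in exons, the shares were 78.3% (73.8 to 82.2), 77.4% (69.6 to 83.7) and 66.5% (59.9 to 72.5). In Miat, with 55.7%, they were 70.9% (62.7 to 77.9), 66.7% (47.8 to 81.4) and 75.6% (68.3 to 81.7). These intervals cover counting error only.

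Pooled over the samples of an assay, reads on the strand opposite to the gene were few at Malat1, and below the median of genes at Neat1 and Tug1 too. Antisense reads made up 9.76% of Malat1 reads in scGRO–seq, 13.03% in inAGTuC and 0.499% in AGTuC. For Neat1 the shares were 14.1%, 21.9% and 0.527%, for Tug1 23.4%, 21.3% and 4.50%, and for Miat 34.95%, 46% and 23.5%. The medians over genes with no annotated gene on the other strand were 32.7%, 34.04% and 6.51%. Pooled, Malat1, Neat1 and Tug1 lay below the median in every assay and Miat above it. The 95% Wilson intervals of Miat covered the median in scGRO–seq (28.8 to 41.7) and in inAGTuC (32.97 to 59.6). Its share ran from 0% in batch Exp264a to 78.6% in Exp160. Single samples also departed from the pooled shares. In inAGTuC Exp234_c11 Neat1 (39.4%) and Tug1 (46.4%) lay above the inAGTuC median, and Malat1 was at 31.9%. Pooled over inAGTuC, Tug1 lay slightly below Neat1. Pvt1 has an annotated gene on its other strand and held 25.3%, 28.04% and 1.38%.

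Across single nuclei, Malat1 and Pvt1 were read in most cells, and Tug1 and Miat in a minority in every batch. A Malat1 read was found in 2284 of 2512 nuclei (90.9%, 95% Wilson interval 89.7 to 92.0), with 78.3% to 100% per batch. For Pvt1 it was 2037 nuclei (81.1%, 69.4% to 97.1% per batch). Neat1 was read in 1032 (41.1%), and its batches ran from 23.8% to 90.3%, with over 50% of nuclei in 3 of them, Exp208, Exp156 and Exp264a. Tug1 was read in 327 nuclei (13.02%, 4.76% to 20.9% per batch) and Miat in 125 (4.98%, 0.746% to 10.2% per batch). Of the Miat nuclei 83 were in Exp236, and without that batch 42 of 1700 remained (2.47%). Malat1 is 6983 bp long and Pvt1 222230 bp, so that Pvt1 reached its share of nuclei with a level per kb far below that of Malat1. A nucleus without a read is not shown to lack transcription at this depth. The highest count was 97 Malat1 reads in a nucleus of Exp208 with 22728 reads in all, which also held the highest Neat1 count of 22.

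Bursts of several polymerases on a gene in the same nucleus would give more nuclei with 2 or more reads than a random spread of a library's reads over its nuclei. The count passed the test for none of the 5 members and for no other gene, and the test had little reach, since 10 batches cannot give an exact sign-flip p below 0.00195 before adjustment over all genes. Malat1 is read in so many nuclei that most were expected to hold 2 or more reads, which leaves little room for an excess. Reads were counted over the whole span, whereas the study limited its burst test to a window at the start of genes. Pvt1 is 222230 bp long, so 2 reads on it in a nucleus need not stem from the same burst. Malat1 had 1865 such nuclei against 1894 expected from permuting reads within libraries (ratio 0.985, above expectation in 2 of 10 batches, exact sign-flip p = 0.080, adjusted p = 0.79). Neat1 had 350 against 361 (0.969, adjusted p = 0.89), Tug1 35 against 36.7 (0.953, adjusted p = 0.90), Miat 7 against 6.60 (1.06, adjusted p = 1) and Pvt1 1398 against 1377 (1.02, adjusted p = 0.92), by the same exact test. Of all 9958 genes tested 0% were called and 675 had an unadjusted p under 0.05, with a median ratio of 1.06. Among genes with read counts like the member's, the median was 0.990 for Malat1, 1.003 for Neat1, 1.07 for Tug1, 1.21 for Miat and 0.992 for Pvt1. The median over all genes depends on the counting, and was 0.983 with 1 read kept per 50 bp bin and 1.13 with reads permuted over all cells. In bins the ratio was 0.979 for Malat1 (unadjusted exact p = 0.0156, adjusted p = 0.25), 0.940 for Neat1 (0.041 and 0.46), 0.798 for Tug1 (0.033 and 0.39), 0.619 for Miat (0.0039 and 0.14) and 1.01 for Pvt1 (0.63 and 0.98). With all deposited reads the Malat1 ratio was 0.974 (unadjusted exact p = 0.00195, the smallest possible). Without Exp160, Exp260b or Exp263 the Miat ratio was 0.925 to 0.935, and without Exp236 it was 4.62, on 3 of the 7 nuclei. Without Exp236 the Malat1 ratio was 0.973 (unadjusted exact p = 0.0195).

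**Figure D4:**
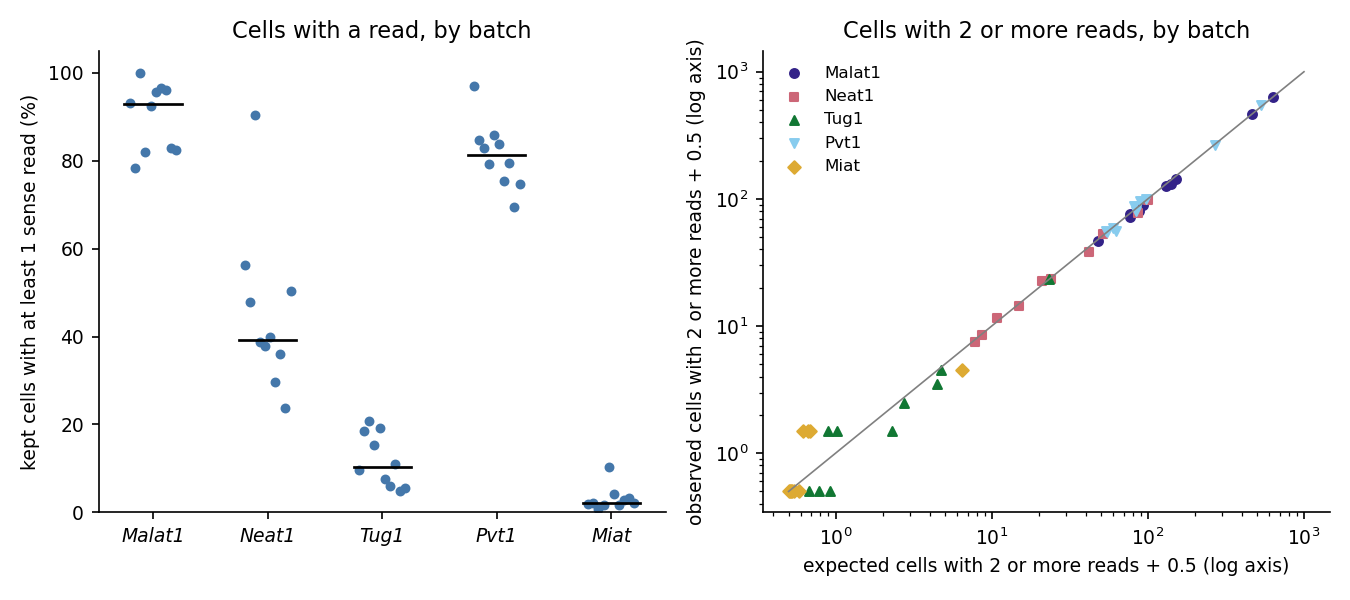
Left, percentage of kept nuclei with at least 1 sense read on each gene, with a point per scGRO–seq batch and the median as a bar. Right, observed against expected nuclei with 2 or more reads by batch, both plus 0.5 on log axes, where points on the line have the count expected from permuting reads within libraries and the Malat1 points lie close to it.

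Malat1 and Neat1 are neighbours on chromosome 19, and reads on both in the same nucleus were counted against the same expectation. Both were read in 960 nuclei against 968 expected (ratio 0.992, above expectation in 5 of 10 batches, exact sign-flip p = 0.68). The batches ranged from 37 nuclei against 48.98 expected in Exp211 to 114 against 107.8 in Exp264a, and without Exp211 the ratio was 1.00. With all deposited reads the ratio was 0.973 (exact sign-flip p = 0.0078). Of the other pairs, given without a test, Malat1 and Pvt1 shared 1879 nuclei against 1892 expected, and Tug1 and Miat 19 against 25.2.

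Genes of the proteins that work with these RNAs were read in the same fit. Of 18 paraspeckle genes, 6 were higher in AGTuC than in scGRO–seq and 0 lower, with a median log2 difference of 0.19 beside 0.12 for all genes, of which 29.8% were higher and 24.9% lower. They included Hnrnpf (1.18, SE 0.27, limma adjusted p = 0.0010), Nudt21, a factor of poly(A) site choice (1.04, adjusted p = 0.0015), Rbm7, of nuclear RNA decay (1.21, adjusted p = 0.0098), and Hnrnpk, known to favour the long Neat1 transcript (0.89, adjusted p = 0.012). Sfpq and Nono, core paraspeckle proteins, had log2 differences of -0.31 and 0.24 (adjusted p = 0.36 and 0.50). Of 18 nuclear speckle genes 2 were higher, Srsf7 (0.81) and Acin1 (0.80), and 1 lower, Srrm2 (-0.79), with a median of 0.23. Of the 6 genes for end processing and stability of these RNAs 5 were tested and 0 called, among them Elac2, which cuts the 3′ end of mascRNA (-0.22, adjusted p = 0.59), and Mettl16, which binds the triple helix (0.18, adjusted p = 0.59).

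Of 23 other long non-coding RNA genes 20 had a span and 15 passed the filter, of which 2 were higher and 10 lower in AGTuC, where 29.8% of all genes tested were higher and 24.9% lower. Their median log2 difference was -1.54, beside 0.12 for all genes. Like Malat1, Gas5 (-4.16, adjusted p = 0.00027) and 2410006H16Rik (-4.72, adjusted p = 0.00047), which carry small nucleolar RNAs in their introns, and Lncpint (-1.54, adjusted p = 0.0026) were among those lower. The mean level of Gas5 was 2724 in scGRO–seq and 166 in AGTuC. Sense reads on small RNAs inside a span count towards its level. The counts and the median of this list therefore do not stand for long RNAs alone. How far genes that carry small RNAs weigh in them was not tested. Xist had 172 scGRO–seq reads and 0 AGTuC reads. Its scGRO–seq level had a mean of 1.04 and ran from 0.279 to 2.36 over the batches. That mean was 34.7 times the level that 3 reads over the AGTuC libraries would give (0.0300), a floor set for a count of 0. Antisense shares of genes were higher in scGRO–seq than in AGTuC (medians 32.7% and 6.51%). Whether transcription of the other strand adds to the Xist reads was not tested.

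Genes whose log2 level ran most like each member over the 16 samples were found by Pearson's r, as a description, since samples of an assay share depth and chemistry. For Malat1 they were Fam168a (0.90), Wnk1 (0.90) and Cenpp (0.89), for Neat1 Map2k3 (0.87), Acbd3 (0.84) and Tmem18 (0.84), and for Tug1 Pabpc4 (0.88), Fubp1 (0.82) and Cep57l1 (0.79). For Miat they were Dgke (0.85), Ctr9 (0.82) and Zfp428 (0.82), and for Pvt1 Fnbp1 (0.92), Plekha7 (0.90) and Ankrd11 (0.90).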

How the data were processed

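The authors trimmed reads with Cutadapt, aligned them with Bowtie2 to mm10 and removed duplicates with UMI-tools, per the labels, with versions not given in the sources used here. The deposited lists hold a deduplicated read per line with its mapping quality score, cell barcode and molecular identifier. Sense reads on RefSeq GRCm38 spans were counted from these lines, on the strand opposite to the entry, at its 5′ end. Molecules listed in more than 1 library were dropped. Nuclei with 1000 or more reads on 750 or more genes were kept, in libraries with 24 or more of them, and summed by batch over the 10 batches named in the study's plot of reads per cell.

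Levels were compared with limma 3.58.1 (voom, TMM, R 4.3.3, Python 3.11.15) over genes past a count minimum of 10. This took the place of the planned count test, which was not run. Promoter shares, reads past the end (5 reads or more per sample, genes of 2 kb or more) and nuclei were tested by exact permutation or sign flips, with Benjamini-Hochberg adjustment over all genes at 0.05. The scripts were tested on simulated data with 200 changed genes. Alternatives covered normalization, filter, windows, pseudocount, duplicates, cells, batches, experiment as a random block and each sample left out. Nothing states that samples came from separate cultures, so p-values measure the spread between these samples, which may be technical.

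The members and lists were chosen with earlier results of these data known. Named were the 5 members, their neighbours, up to 4 genes per list with the smallest p, and the 3 genes most like each member. Intervals cover counting error only, at 95%. A scGRO–seq list of Exp261_c16 shared 99.7% of its molecules with the inAGTuC list of that name and was not used.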

Additional observations from a re-analysis of the deposited data

Results flagged for a closer look

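In 42 groups of 4 to 10 samples of the members' values, 5 held a sample far from the others. The rule marks about 1 in 20 groups by chance where values are normally spread. Shares that rest on few reads, as for Tug1 and Miat below, need not follow that rate, so the 2 figures are not comparable. The scGRO–seq batch Exp208 stood far above the other 9 batches in Malat1 level (568 against 335.9 in the next) and in Neat1 level (83.1 against 28.5). The inAGTuC library Exp208_c12 had a Tug1 promoter share of 14.3%, from 2 of 14 reads, against 1.35% in the next. Batch Exp236 was the only scGRO–seq batch with a Miat read near the start, a share of 2.27% from 2 of 88 reads. The other batches held 1 to 16 Miat reads each. The inAGTuC library Exp261_c16 had a Miat antisense share of 22.7%, from 5 antisense and 17 sense reads. The next had 62.5%, from 5 and 3.

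In 4 scGRO–seq batches outside the comparisons Malat1 was also read. Its level was 415 in Exp179, 255 in Exp261, 31.5 in Exp256 and 10.8 in Exp263b, the last 2 from 13 and 9 reads. The first 2 lie within the range of the 10 batches compared, 170 to 568, and the last 2 below it.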

How the results depend on the processing

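The count of genes called in level was 6670 for AGTuC against scGRO–seq and 5115 for AGTuC against inAGTuC, and became 14356 and 11748 with no filter on low counts, 4347 and 3156 with mapping quality of 30 or more, and 4221 and 2256 with 1 read per 50 bp bin and barcode, and, with all scGRO–seq batches, 3381 for the second. With all batches Malat1 was not called (-1.43, adjusted p = 0.17, and -1.84, adjusted p = 0.15). The AGTuC libraries carry a single barcode, so 1 read per bin caps them, and Malat1 then had a log2 difference of -4.41 from scGRO–seq, Neat1 of -0.98 and -0.75, the promoter shares of Neat1 and Pvt1 differences of -4.22 and -0.27 points, and 0 genes and 0 members were called in promoter share. Tug1 also passed in AGTuC against scGRO–seq with median-of-ratios size factors, no minimum of genes, all barcodes or all deposited reads (adjusted p = 0.0049 to 0.043), and Pvt1 with no filter or all deposited reads (adjusted p = 0.037 and 0.0067). Miat did not pass the filter with mapping quality of 30 or more. Malat1 in inAGTuC against scGRO–seq was 0.072 with no filter, 0.057 without the first and last 500 bp and 0.41 with all batches, and Pvt1 0.0097 with all batches. The Pvt1 promoter difference was -0.0098 and -0.050 points with windows of 250 and 1000 bp and -0.18 with all deposited reads. Past the end, 0 genes and 0 members were called with a pseudocount of 0.01, 1 member with 1, and 4 members with all deposited reads. The Neat1 ratio of start to rest differed by 0.0094 with a pseudocount of 1 and by -1.74, past the threshold, with 1 read per bin. Nuclei with 2 or more reads gave ratios of 0.619 for Miat in bins, 0.883 with 5 kb past the end and 0.904 with permutation within batch, 1.03 for Neat1 and 0.984 for Pvt1 with all reads, 1.01 for Malat1 within batch and 1.00 for Tug1 over all cells. Malat1 with Neat1 gave 0.973 with all reads (exact p = 0.0078).

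Leaving out each sample in turn, level calls ran from 3635 to 6960 for AGTuC against scGRO–seq, 0 to 86 for inAGTuC against scGRO–seq and 1771 to 5205 for AGTuC against inAGTuC, lowest without AGTuC c02 in both AGTuC comparisons. Genes called ran from 0 to 3551 in promoter share and 0 to 1766 past the end, and members called from 0 to 2 and 0 to 3, with 0 only without an AGTuC library. The Neat1 ratio ran from -0.42 to -0.16, -0.16 to 0.41 and -0.70 to -0.12 in the order of the level calls, and Malat1 with Neat1 from 0.976 to 1.00. The Malat1 log2 difference ran from -2.13 to -1.92, the Pvt1 promoter difference from -0.17 to 0.27, and the Malat1, Neat1, Pvt1 and Tug1 differences of inAGTuC and scGRO–seq from -0.47 to 0.29, -0.35 to 0.077, -0.56 to -0.02 and -0.65 to 0.026. The ratios of Miat ran from 0.925 to 4.62. The cause of these changes was not tested. No paired analysis was possible because replicate numbers name samples in accession order alone and only 1 experiment, Exp208, holds more than 1 assay among the samples compared. Experiment as a random block, chosen after seeing the data, gave 5085, 0 and 3673 calls in that order. A second count-based test was not run. The 2 AGTuC libraries limit every call against them, and Miat was limited by depth.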
